A study of Sus scrofa with 8 samples.

Results

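MHC class I molecules present peptides from inside the cell to CD8 T cells. In the pig they are encoded by the SLA genes, and each consists of a polymorphic heavy chain and the invariant light chain beta-2-microglobulin (B2M). The peptides are cut by the proteasome, whose catalytic subunits can be replaced by interferon-induced ones such as PSMB8 and PSMB9 to form the immunoproteasome, and they are carried into the endoplasmic reticulum by the transporter made of TAP1 and TAP2. In adipose tissue these genes are expressed by fat cells, vessel cells and resident immune cells alike, and interferon raises them together. In the pig assembly Sscrofa11.1, as annotated by RefSeq, TAP2, PSMB8, TAP1 and PSMB9 follow each other in this order within the SLA region.

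The genes described here were taken by symbol: SLA-1, SLA-2, SLA-3, SLA-6, SLA-8, B2M, TAP1, TAP2, PSMB8 and PSMB9. A probe set, the group of short probes that reports 1 transcript on the array, counted as a member when the platform annotation gave it exactly 1 gene symbol and that symbol was in the list. This found 19 of the 24123 probe sets, for 7 of the 10 symbols. B2M had 9 probe sets, TAP1 had 3, SLA-6 and SLA-8 had 2 each, and SLA-2, SLA-3 and PSMB8 had 1 each. SLA-1, TAP2 and PSMB9 had 0, so their values are not analysed here. SLA-1 was named only on 4 probe sets that also carry other symbols.

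Backfat, the subcutaneous fat of the back, was compared between pigs of the breeds KNP, aged 7 months, and YS (Yorkshire), aged 6 months, with 4 samples each from animals raised under the same conditions. KNP is not spelled out and sex is not given. Whether the 4 samples of a breed stand for 4 animals is not stated either, so every SD and p-value refers to the spread among samples, which may be technical. Breed and age cannot be told apart. Each sample was hybridised to 1 Affymetrix GeneChip Porcine Genome Array, and 4 arrays per breed limit the precision of every value.

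The authors' signals had the same trimmed mean on every array, while the median signal ran from 158.2 to 263. The fat cell markers listed as a check of the tissue were above background on all arrays for 9 of 9 measured genes. Background is taken throughout as the 95th percentile on each array of 23 controls that no pig transcript should bind, which was 40.6 to 161 in signal. The log2 difference of 3' and 5' housekeeping control signals (called the 3'/5' difference), a measure of RNA integrity and labelling, was 9.13 on KNP replicate 1, 5.92 on KNP replicate 2, 4.43 on YS replicate 4 and 2.12 to 3.18 on the others. The summed signal of the skeletal muscle markers was 97512 on KNP replicate 2, 29817 on KNP replicate 1 and 8885 to 16477 on the others.

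The comparison asked whether class I presentation genes differed in backfat between the breeds. Most lay lower in KNP, by small amounts, and none passed the test. Of the 19 probe sets 17 passed the filter on low signal, 13 of them with a lower mean in KNP and 4 with a higher mean, where 50.1% of all 17999 probe sets tested were lower. Over all 19, filter aside, 14 were lower. The median log2 difference of the 17, KNP minus YS on the log2(signal + 16) scale used throughout, was -0.34, beside -0.0010 over all probe sets. In limma with Benjamini-Hochberg adjustment 0 of 17 passed an adjusted p of 0.05, and the share called among all probe sets was 0%. All 17 had an adjusted p of 0.9998. At an unadjusted p under 0.05 there were 2, one each for TAP1 and SLA-8, where 2.84% of all probe sets had such a p. Leaving out KNP replicate 3, or one of YS replicates 3 and 4, brought that count of 2 to 0, leaving out KNP replicate 1 or 4 to 1, and leaving out YS replicate 1 or 2 to 3. With array weights, normalization or the filter changed there were still 0 calls.

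The count and the median rested partly on single arrays. Without YS replicate 3 the median was -0.16, and without KNP replicate 4 it was -0.51. With KNP replicates 1 and 2 and YS replicate 4, the 3 arrays highest in 3'/5' difference, left out it was -0.14, and 12 of 17 probe sets were lower in KNP. With 1 probe set per gene, the brightest, 6 of 7 genes had the lower mean in KNP and the median was -0.37, beside 48.2% of all 6006 genes and an overall median of 0.01.

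**Figure D1:**
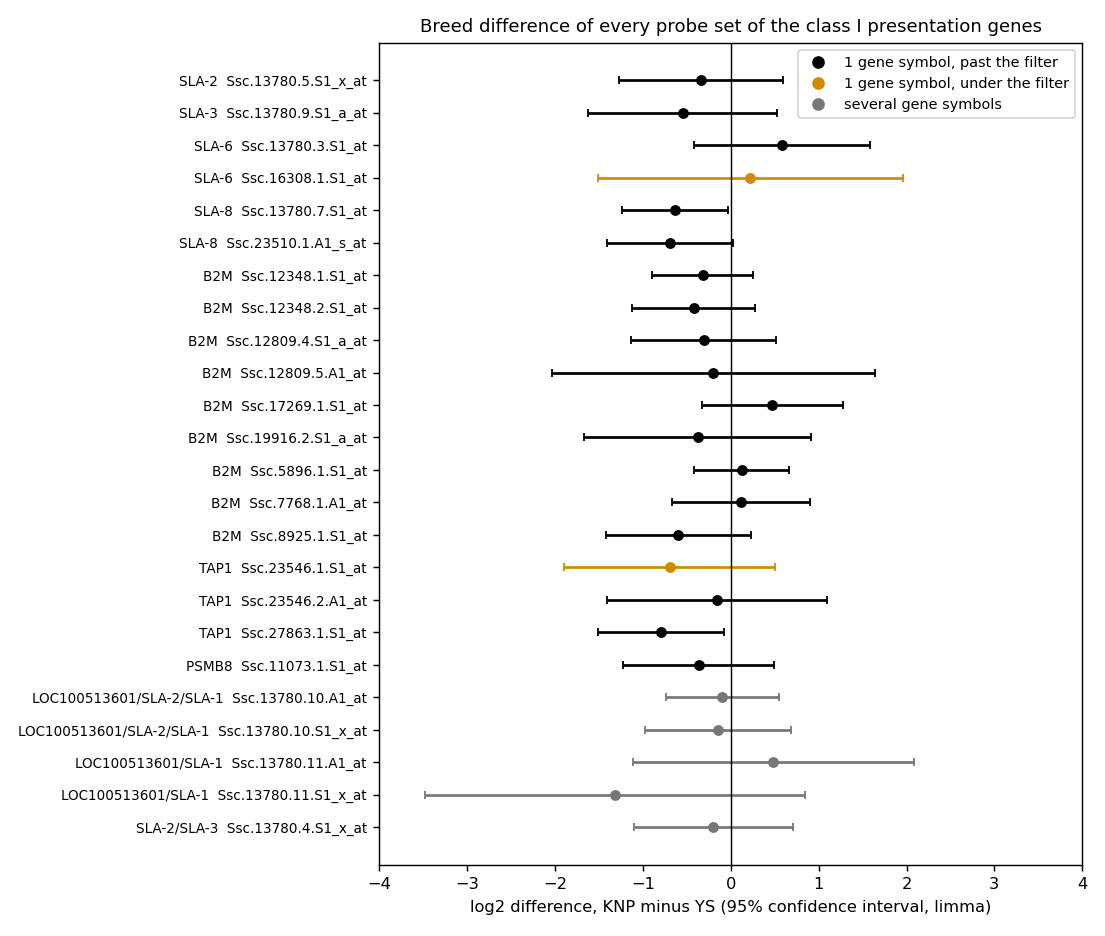
Log2 difference of means, KNP minus YS, with its 95% confidence interval from limma, for the 19 member probe sets and, in grey, 5 probe sets that carry several class I symbols. 14 of the 19 points lie left of 0, and the interval leaves out 0 only for 1 SLA-8 and 1 TAP1 probe set before adjustment for the number of probe sets tested.

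Among the heavy chains, both SLA-8 probe sets read lower in KNP. On probe set Ssc.13780.7.S1_at the log2 signal was 10.24, 10.53, 10.02 and 10.46 on KNP replicates 1 to 4 and 10.64, 10.65, 11.24 and 11.27 on YS replicates 1 to 4. Every KNP array lay below every YS array, which held for 0.856% of all probe sets and, among the 17, for this 1 alone. The KNP mean of 10.31 ± 0.23 and the YS mean of 10.95 ± 0.35 (SD, n = 4 each) gave a difference of -0.64 ± 0.27 (SE), or 1.56-fold higher in YS, with a limma p of 0.0400 before adjustment. The other SLA-8 probe set, Ssc.23510.1.A1_s_at, read 11.18, 11.40, 10.56 and 10.96 in KNP and 11.33, 11.34, 11.88 and 12.32 in YS. There KNP replicate 2 alone exceeded YS replicates 1 and 2, and the difference was -0.69 ± 0.32 (SE). Both SLA-8 probe sets were highest on YS replicate 4 and lowest on KNP replicate 3. SLA-8 belongs to the class I-related SLA genes that lie apart from the classical ones, beside SLA-7 and SLA-6.

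SLA-2 and SLA-3 encode classical class I heavy chains, which present peptides to T cells. SLA-2 was at 12.49, 14.05, 13.66 and 14.09 on the KNP arrays and at 13.49, 13.82, 14.59 and 13.76 on the YS arrays. KNP replicate 1 was lowest and the other KNP arrays lay within the range of YS, so that the difference of -0.34 ± 0.41 (SE) became 0.02 without KNP replicate 1. SLA-3 was at 12.13, 12.79, 11.77 and 13.40 in KNP and at 12.25, 13.36, 14.01 and 12.66 in YS, a difference of -0.55 ± 0.47 (SE). Its breeds overlapped over most of their range, and the 95% confidence interval ran from -1.62 to 0.52. The difference was -0.24 without YS replicate 3 and -0.30 without KNP replicate 3, but -0.84 without KNP replicate 4 and -0.82 without YS replicate 1.

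SLA-6, a non-classical heavy chain gene, was the gene with the higher mean in KNP. Its probe set Ssc.13780.3.S1_at read 9.04, 9.91, 10.04 and 10.17 in KNP and 7.98, 9.44, 9.56 and 9.85 in YS. The difference was 0.58 ± 0.45 (SE). It was 0.18 without YS replicate 1, the lowest array, and 0.83 without KNP replicate 1. The second SLA-6 probe set did not pass the filter and was above background on 0 KNP and 2 YS arrays, with a difference of 0.22.

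The class I heavy chain genes differ in sequence between animals and resemble each other. The endings _x_at of the SLA-2 probe set and _s_at of the brighter SLA-8 probe set mark probes that match other transcripts too. Probe sequences were not used here, so a difference in the amount of RNA and a difference in how well a breed's alleles match the probes cannot be told apart for these genes. The 5 probe sets that carry several class I symbols did not enter the counts. On the one annotated to both SLA-2 and SLA-3 the difference was -0.20, with KNP at 13.76 ± 0.66 and YS at 13.96 ± 0.54 (SD, n = 4). Of the 4 that name SLA-1, the differences were -0.10 and -0.15 for the pair above background on all arrays, and 0.48 and -1.32 for the pair that was above background on 1 KNP array and on 1 and 3 YS arrays.

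**Figure D2:**
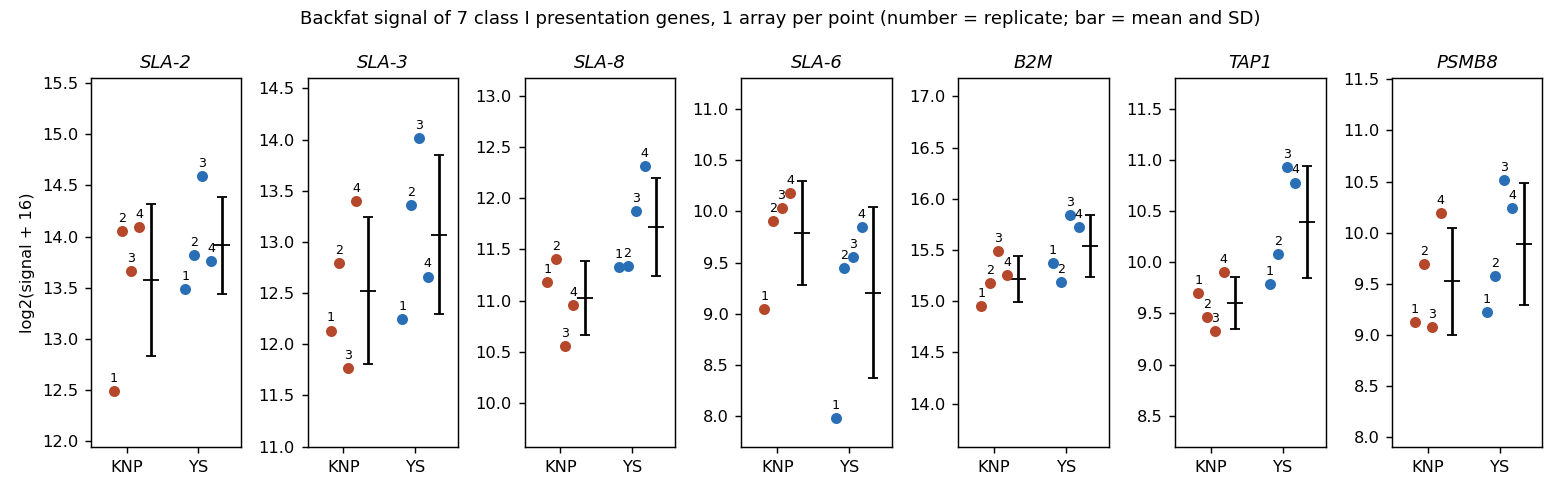
Log2(signal + 16) of the probe set with the highest mean for each of 7 genes, 1 point per array numbered by replicate, with the mean and SD of each breed; each panel has its own range of the same height. Except for SLA-6, the YS mean lies above the KNP mean, and the breeds overlap in every panel.

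Beta-2-microglobulin is needed for the heavy chain to fold and reach the cell surface. Its probe set with the highest mean, Ssc.12348.1.S1_at, read 14.95, 15.18, 15.49 and 15.25 in KNP and 15.38, 15.19, 15.85 and 15.73 in YS. KNP replicate 3 lay above YS replicates 1 and 2 and KNP replicate 4 above YS replicate 2, and the difference was -0.32 ± 0.25 (SE). The second probe set of that name stem, Ssc.12348.2.S1_at, read 13.85, 13.72, 13.66 and 14.19 in KNP and 13.70, 13.99, 14.54 and 14.87 in YS, a difference of -0.42 ± 0.31 (SE). On this pair the higher YS means came from YS replicates 3 and 4. Without YS replicate 4 the difference on the second of them was -0.23, and without YS replicate 1 it was -0.62.

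The 9 B2M probe sets did not behave as repeats of 1 measurement. They carry 7 name stems but 1 and the same RefSeq accession in the annotation, and all 9 passed the filter. Their differences ran from -0.60 on Ssc.8925.1.S1_at to 0.47 on Ssc.17269.1.S1_at, 6 lower and 3 higher in KNP. Both ends moved with single arrays: the former was -0.37 without YS replicate 3 and -0.39 without KNP replicate 3, and the latter was 0.19 without KNP replicate 1. Among their 36 pairs, the correlation over the 8 arrays was negative for 18, with a median r of 0.0055 and a range from -0.91 to 0.77. The probe set Ssc.12809.5.A1_at read 10.31 on KNP replicate 1 and 14.28 on KNP replicate 3. The probe set Ssc.17269.1.S1_at was highest on KNP replicate 1, at 11.04, and read 9.44 to 10.10 in YS. There are 2 neighbouring genes with the symbol B2M in the Sscrofa11.1 annotation. With the B2M probe sets left aside, 7 of 8 probe sets were lower in KNP, and their median was -0.46.

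**Figure D3:**
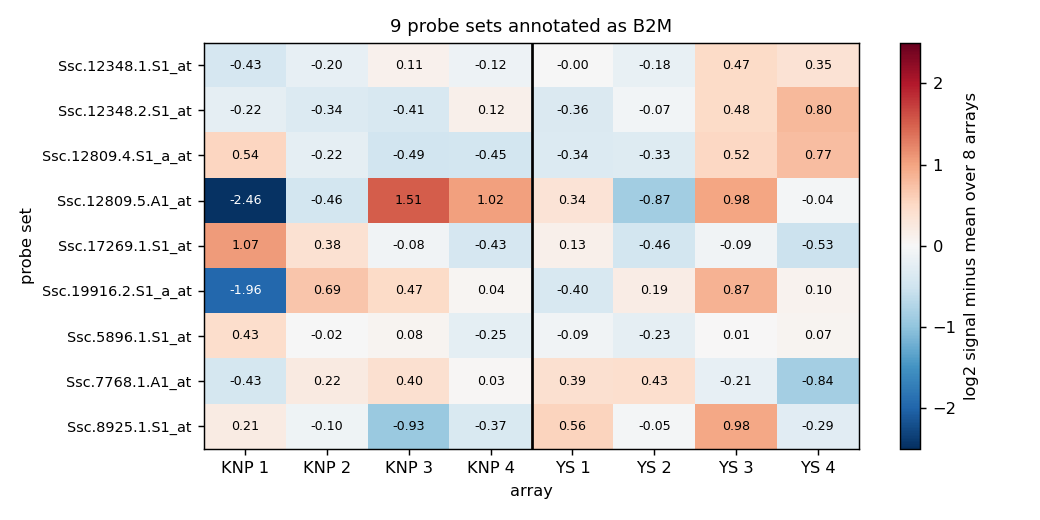
Log2 signal of the 9 probe sets annotated as B2M on each of the 8 arrays, each minus the probe set's own mean over all arrays (colour and printed value). The rows differ in pattern: KNP replicate 1 reads -2.46 on one probe set and 1.07 on the next.

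TAP1 forms one chain of the transporter that pumps peptides to the waiting class I molecules. On its probe set with the highest mean, Ssc.27863.1.S1_at, the signal was 9.70, 9.46, 9.33 and 9.90 in KNP and 9.79, 10.08, 10.93 and 10.78 in YS. KNP replicate 4 lay above YS replicate 1, which was the only overlap. The KNP mean of 9.60 ± 0.25 and the YS mean of 10.39 ± 0.55 (SD, n = 4 each) gave a difference of -0.80 ± 0.32 (SE), or 1.74-fold higher in YS. Its limma p was 0.0335 before adjustment, and the 95% confidence interval ran from -1.51 to -0.08. This was the largest absolute difference among the 17 probe sets, and it was negative under each of the 19 alternative settings, from -0.998 without YS replicate 1 to -0.62 without YS replicate 3. The other TAP1 probe sets were near background. Ssc.23546.2.A1_at was above it on 2 arrays of each breed with a difference of -0.16, and Ssc.23546.1.S1_at, which did not pass the filter, on 0 KNP arrays and 1 YS array with -0.69.

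PSMB8 is the immunoproteasome subunit that takes the place of PSMB5 in the proteasome core. It read 9.13, 9.70, 9.08 and 10.19 in KNP and 9.22, 9.58, 10.52 and 10.24 in YS. The breeds overlapped over most of their range, and the difference was -0.37 ± 0.38 (SE). It was -0.16 without YS replicate 3, -0.22 without KNP replicate 3, -0.23 without KNP replicate 1, -0.59 without YS replicate 1 and -0.59 without KNP replicate 4. To compare the induced with the constitutive subunit, the log2 signal of PSMB5 was subtracted from that of PSMB8 on each array. This gave -0.77 ± 0.64 for KNP and -0.19 ± 0.73 for YS (SD, n = 4 each), which differ by -0.59 ± 0.49 (SE). In an exact permutation test over 70 assignments, two-sided, p was 0.314 and 0.629 after adjustment over 2 pairs, where 0.0286 is the smallest p this design allows. For PSMB10 minus PSMB7, the other pair measured, the difference was -0.06 ± 0.37 (SE), with an exact permutation p of 0.886 and an adjusted p of 0.886. PSMB9 and its partner PSMB6 were not compared, as PSMB9 is not analysed here.

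Across arrays the 7 genes, each by its brightest probe set, were mostly high or low on the same arrays. Of 21 pairs of genes the correlation over 8 arrays was negative for 1, SLA-6 with SLA-8 at r = -0.07, and the median was 0.54. The highest were TAP1 with SLA-8 at 0.84, SLA-3 with PSMB8 at 0.83 and TAP1 with PSMB8 at 0.80. These values describe 8 arrays that share scaling and RNA quality within an array. YS replicate 3 was the highest of the 8 arrays for 5 of the 7 genes and KNP replicate 3 the lowest for 4.

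**Figure D4:**
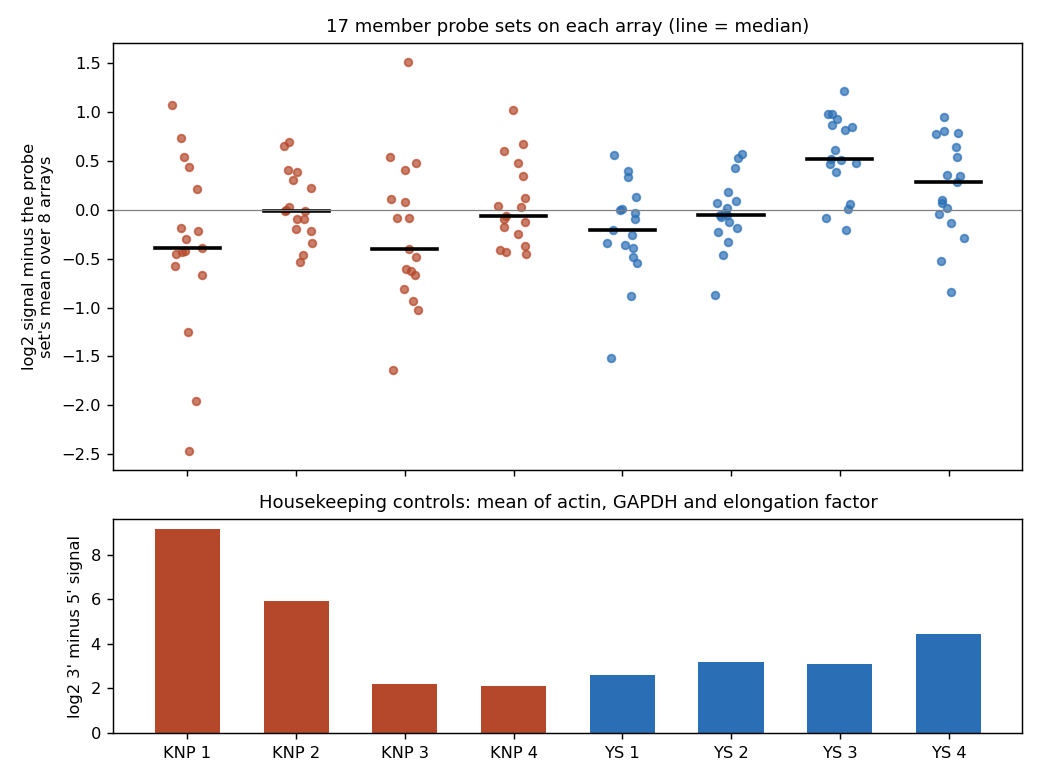
Top, the 17 member probe sets on each array as log2 signal minus the probe set's mean over 8 arrays, with their median as a line; bottom, the 3'/5' difference of housekeeping controls on the same arrays (log2). The medians are lowest on KNP replicates 1 and 3, at -0.39 and -0.41, and highest on YS replicates 3 and 4, at 0.52 and 0.29, while the 3'/5' difference is 9.13 and 2.20 on the former and 3.11 and 4.43 on the latter.

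The arrays of 1 breed differed among themselves. The median of the 17 probe sets around their own means was -0.39, -0.01, -0.41 and -0.07 on KNP replicates 1 to 4, and -0.21, -0.05, 0.52 and 0.29 on YS replicates 1 to 4. These array medians averaged -0.22 ± 0.21 over the KNP arrays and 0.14 ± 0.33 over the YS arrays (SD, n = 4 each). YS replicates 3 and 4 stood above all KNP arrays, and YS replicates 1 and 2 lay among them. KNP replicate 2, the array highest in muscle markers, was neither the highest nor the lowest array for any of the 17. The 2 arrays with the lowest medians had the highest and the second lowest 3'/5' difference.

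Other genes of the same pathway were taken from lists, with 1 probe set per gene. By that choice 48.2% of all 6006 genes were lower in KNP. Of 7 peptide loading and trimming genes, 0 passed the test, 5 were lower in KNP and the median was -0.10. Tapasin (TAPBP), which holds class I molecules at the transporter, had a mean of 8.82 ± 0.76 for KNP and 9.36 ± 0.48 for YS (SD, n = 4 each), and the peptidase TPP2 was at 9.01 ± 0.15 against 8.52 ± 0.51. TAPBP read 7.68 on KNP replicate 1 and 9.12 to 9.29 on the other KNP arrays. In YS it read 10.07 on replicate 3 and 9.03 to 9.17 on the others. Of 3 other class I and class I-like genes 1 was lower, with a median of 0.10. CD1.1, a member of the lipid-presenting CD1 family, was at 9.56 ± 0.19 against 9.35 ± 0.66 and SLA-7, a neighbour of SLA-8 and SLA-6, at 7.34 ± 0.19 against 7.24 ± 0.42.

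Other proteasome genes had 0 calls. The constitutive catalytic subunits PSMB5, PSMB6 and PSMB7 were higher in KNP by 0.22, 0.30 and 0.14. Among the inducible subunit PSMB10 and the PA28 activator genes, PSMB10 differed by 0.07, PSME2 by -0.03 and PSME1 by -0.35, with means of 10.38 ± 0.32 for KNP and 10.73 ± 0.42 for YS (SD, n = 4 each). Of 11 other subunits of the proteasome core, 4 were lower, with a median of 0.03. Their smallest p values belonged to PSMA3, which differed by -0.18, and PSMB2, which differed by -0.17.

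Regulators of class I transcription were split 5 to 5, with a median of -0.02 and 0 calls. IRF9, part of the factor that interferon activates, had a mean of 8.21 ± 0.50 for KNP and 8.75 ± 0.37 for YS (SD, n = 4 each). It read 7.45 on KNP replicate 1, 8.43 to 8.48 on the other KNP arrays and 8.44 to 9.27 in YS. IRF1, which binds class I and TAP1 promoters, was at 9.58 ± 0.44 against 10.05 ± 0.41. The list of interferon receptors and kinases also holds the interferon gene IFNG and the regulators SOCS1 and PTPN2. Of its 9 genes tested 7 had the lower mean, with the median at -0.13. IFNAR1 differed by -0.76. It read 7.64 and 7.55 on KNP replicates 1 and 2, 8.83 and 9.81 on KNP replicates 3 and 4, and 8.78 to 9.41 in YS. IFNG differed by -0.84 and was above background on 0 KNP and 2 YS arrays. Of 18 interferon-induced genes 14 had the lower mean in KNP, and the median was -0.40. An unadjusted limma p under 0.05 was found for 3, where 2.84% of all probe sets had such a p. The summed signal of the 18 was 13124 to 16050 in KNP. It was 12952 and 15689 on YS replicates 1 and 2, and 27260 and 21476 on YS replicates 3 and 4. USP18 differed by -0.99 and OAS1 by -1.24. In the class II list, whose products present peptides from outside the cell, 8 of 8 were lower with a median of -0.30. CD74, the invariant chain, differed by -0.85. It read 7.70 on KNP replicate 1, 10.63 to 11.61 on the other KNP arrays and 10.38 to 11.96 in YS. The summed signal of the class II list was 7558 on KNP replicate 1. It was 13996 to 25494 on the other KNP arrays and 14543 to 23926 in YS. SLA-DQB1 differed by -0.35, and 0 genes of these lists passed the test.

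**Figure D5:**
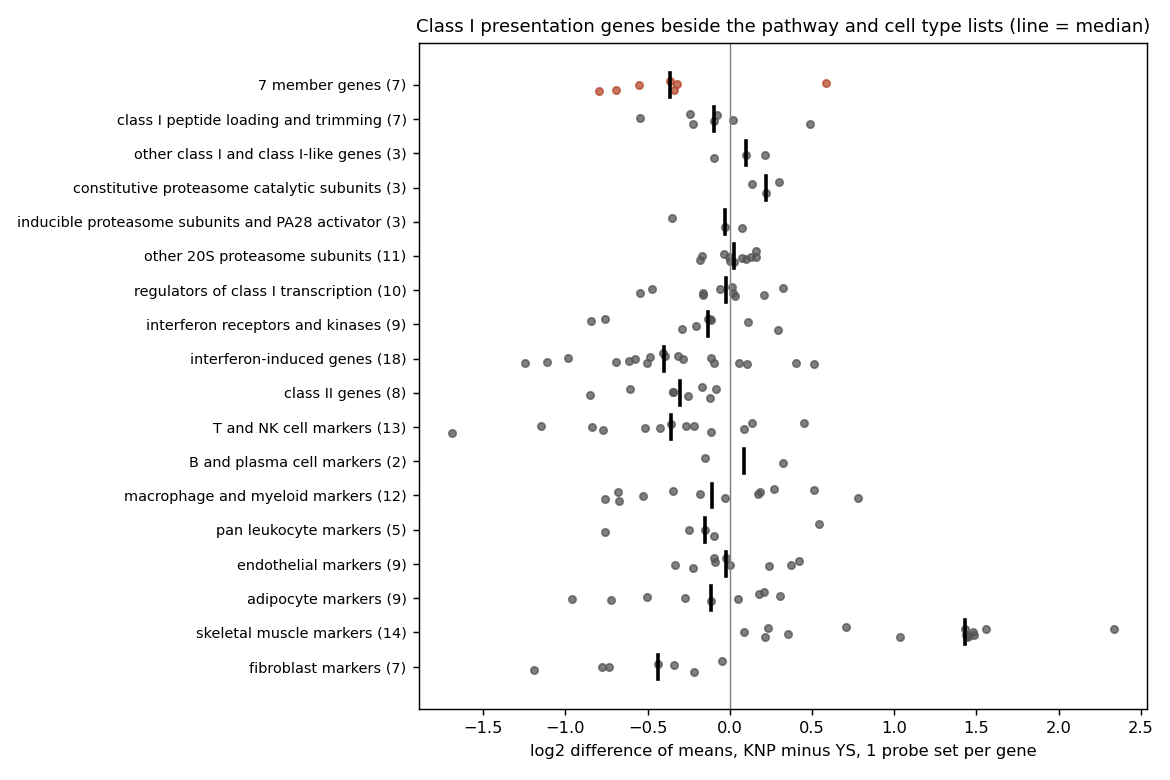
Log2 difference of means, KNP minus YS, for the 7 member genes (top row) and for genes of 17 pathway and cell type lists, 1 point per gene with the number of genes in brackets and the median as a line. The member genes have a median of -0.37, the interferon-induced genes -0.40, the class II genes -0.30, the constitutive proteasome subunits 0.22 and the skeletal muscle markers 1.43, which is -0.10 without KNP replicate 2.

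Immune cells carry much class I and class II RNA. Of their markers, those of T and NK cells and the pan leukocyte ones were mostly lower in KNP. Macrophage and myeloid markers were lower for 7 of 12 and B and plasma cell markers for 1 of 2, where 48.2% of all genes were. In these bulk samples fewer cells of a type and less RNA per cell cannot be told apart. Among 13 T and NK cell genes tested, 10 had the lower mean in KNP, the median was -0.36, and the summed signal was 2271 to 4149 in KNP and 2498 to 4597 in YS. Only 4 of the 13 were above background on all arrays. CCL5, a chemokine of activated T cells, differed by -1.69 and was above background on 3 KNP and 4 YS arrays. Every KNP array lay below every YS array, which held for 0.856% of all probe sets, and KNP replicate 2 was lowest at 5.67. The early activation marker CD69 differed by -1.15 and was above background on 1 KNP and 3 YS arrays. CD4 and PRF1 did not pass the filter. Pan leukocyte markers were lower for 4 of 5 with a median of -0.15 and a summed signal of 2857 to 5570 in KNP and 2965 to 6342 in YS. PTPRC, the general leukocyte marker CD45, differed by -0.76 and was above background on 1 KNP and 3 YS arrays, and LCP1 differed by 0.54.

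Macrophage and myeloid markers were lower for 7 of 12, with a median of -0.11 and a summed signal of 4759 to 9349 in KNP and 6301 to 15651 in YS. Of the 12, 8 were above background on all arrays. The mannose receptor MRC1 differed by -0.68 and the co-stimulatory CD86 by 0.78, the latter above background on 3 KNP and 2 YS arrays. B and plasma cell markers had 2 tested genes, JCHAIN at 0.32 and XBP1 at -0.15, and their summed signal was 2054 to 5213 against 3657 to 4496. Endothelial markers were lower for 5 of 9 with a median of -0.03 (PECAM1 0.24, FLT1 0.42), and their summed signal was 11977 to 22191 against 15664 to 16827. The breeds overlapped in the summed signal of each of these lists. The part of these cell types in the lower class I signal was not tested.

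Fat cell markers were lower for 5 of 9 with a median of -0.11 (LPL -0.50, PNPLA2 0.31). Fibroblast markers were lower for 7 of 7 with a median of -0.43 (MFAP5 -1.19, LUM -0.78), and skeletal muscle markers higher for 14 of 14 with a median of 1.43 (DES 1.49, ENO3 2.33). The muscle value rested on KNP replicate 2: with that array left out, an alternative chosen after seeing the data, 6 of 14 were higher and the median was -0.10. ENO3 read 12.80 on that array and 5.30 to 6.64 on the other KNP arrays, and it was above background on 2 KNP and 0 YS arrays. DES read 8.12, 8.80, 8.35 and 7.41 on KNP replicates 1 to 4 and 5.31 to 7.48 in YS. It was above background on 4 KNP and 2 YS arrays. Only 3 of the 14 muscle markers were above background on all arrays. For LPL and MFAP5 every KNP array lay below every YS array, which held for 0.856% of all probe sets. None of the genes of these lists passed the test.

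By Pearson correlation over the 8 arrays, the 5 genes among 5999 others most like the mean of the 7 member genes were GBP2, TMEM106A, SLA-DQB1, PARP12 and SLA-DMB. Their r was 0.94, 0.94, 0.94, 0.93 and 0.93. GBP2 is an interferon-induced GTPase, SLA-DQB1 a class II chain and SLA-DMB a chain of the molecule that loads class II. Their own differences between the breeds were -0.12 for GBP2, -0.33 for TMEM106A, -0.35 for SLA-DQB1, -0.17 for PARP12 and -0.26 for SLA-DMB. These correlations include the differences between arrays of 1 breed, and they are given without a test because the highest values were picked from all genes.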

How the data were processed

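The authors deposited 1 intensity per probe set and array on a linear scale for 24123 probe sets of the biotin-labelled GeneChip Porcine Genome Array, per the labels. Trimmed by 2% from either end, the array means were all 500.1; how probes were summarised is not stated in the labels. The scaling was kept. Values were taken as log2(signal + 16), without 124 controls, and of the other 23999 probe sets the dimmest 25% by mean were dropped, so that 17999 were tested. The breed term was tested in limma 3.58.1 (R 4.3.3), two-sided, with no covariate and Benjamini-Hochberg adjustment over all probe sets tested; the fit was tested on simulated data. Differences of subunit signals used an exact permutation test. Symbols came from the platform annotation of 2016; all 7 found matched RefSeq through the Entrez identifier, unchanged. Probe sets have no positions here, so no coordinates are given.

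Named genes were all member probe sets, the 2 genes of smallest p per list, the partner subunits and the 5 most correlated genes. The members and lists were chosen with earlier results of these data known. Alternatives changed the filter (none or 50%), the scaling (quantile or median), the pseudocount (1 or 64) and the variance model (trended and robust, with statmod 1.5.0); others used array weights, the replicate number as a block, the 3'/5' difference as a covariate, each array left out, the 3 arrays of largest 3'/5' difference left out, an adjusted p of 0.10, and averaging over each gene's probe sets. The 3'/5' difference was the mean over 3 controls (actin, elongation factor, GAPDH) of log2 3' minus 5' signal.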

Additional observations from a re-analysis of the deposited data

How the results depend on the processing

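No member probe set, member gene or list gene passed an adjusted p of 0.05 in limma in the 8 arrays or under any alternative run, nor did any of all probe sets. The threshold of 0.10, applied only to the 8 arrays at the usual settings, also gave 0. The smallest adjusted p of any probe set was 0.0596, with trended and robust variance. At an unadjusted p under 0.05 there were 511 of all probe sets and 2 of the members in the 8 arrays. With 1 array left out these were 423 to 884 and 0 to 3. Over all probe sets the count was 1516 on 5 arrays, 881 when the 3'/5' difference was a covariate and 975 under weighting of arrays. Over the members it was 1 with array weights or no filter. It was 3 with the filter of 50%, the pseudocount of 64, trended and robust variance, or the 3'/5' covariate. The smallest adjusted p of a member was 0.532. The number of member probe sets lower in KNP was 11 to 14 with 1 array left out (11 without KNP replicate 1), and the median difference ran from -0.51 to -0.16. The number of member genes lower was 5 to 6 and their median ran from -0.59 to -0.22. Of 322 values of single member probe sets under the alternatives, 308 kept their direction. With array weights Ssc.12809.5.A1_at (B2M) was 0.51 and Ssc.7768.1.A1_at (B2M) was -0.029; with the 3'/5' covariate the former was 0.57. With the 3 arrays of largest 3'/5' difference removed it was 1.12, Ssc.17269.1.S1_at (B2M) was -0.12 and Ssc.19916.2.S1_a_at (B2M) was 0.040. With 1 array left out, the values ran from -0.51 to 0.020 for SLA-2, from -0.74 to 0.59 for Ssc.12809.5.A1_at, from -0.67 to 0.21 for Ssc.19916.2.S1_a_at, from -0.0015 to 0.23 for Ssc.5896.1.S1_at (B2M), from -0.15 to 0.28 for Ssc.7768.1.A1_at, and from -0.48 to 0.36 for TAP1 probe set Ssc.23546.2.A1_at. PSMB8 was -0.14 on the 5 arrays. PSMB10 minus PSMB7 ran from -0.24 to 0.18, and PSMB8 minus PSMB5 from -0.92 to -0.38. The cause of these changes was not tested. In the deviations from the breed means, arrays of the same replicate number correlated at -0.17, 0.02, 0.13 and -0.19. These values show no pairing by number, but so few of them cannot settle whether the arrays were paired. With the replicate block 0 probe sets passed, 13 member probe sets were lower in KNP and 0 members had an unadjusted p under 0.05. The signals carry no counts, and 4 member probe sets were at or under background on some arrays.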
